A study of Saccharomyces cerevisiae with 4 samples.

Results

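The genes described here are 8 genes for phosphate uptake, phosphate scavenging and polyphosphate storage in Saccharomyces cerevisiae. They were chosen by their systematic names: YBR092C (PHO3), YBR093C (PHO5), YAR071W (PHO11), YHR215W (PHO12), YML123C (PHO84), YHR136C (SPL2), YER072W (VTC1) and YPL019C (VTC3). All 8 were found among the 4777 genes of the count table. The choice was made with levels in these same libraries known, so the values are given as a description and without tests. Their sum was 966 UMIs in the DMSO library, 725 in the Guanine library, 123 in the MPA library and 1104 in the MPA + Guanine library, which was 3104 CPM, 3345 CPM, 1197 CPM and 3946 CPM. CPM is the usual scaling of a gene's UMIs by the total UMIs of its library (its share times 1000000), and a UMI (Unique Molecular Identifier) marks 1 captured mRNA molecule.

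The cells were BY4741, a haploid MATa laboratory strain that carries his3Δ1, leu2Δ0, met15Δ0 and ura3Δ0. They were grown for 18 h in complete synthetic medium with glucose, and the added compounds were at 10 µM: DMSO, guanine, mycophenolic acid (MPA) with DMSO, or MPA and guanine with DMSO. According to the Methods the Guanine medium held no DMSO. MPA inhibits IMP dehydrogenase and so lowers GMP synthesis, and guanine feeds the same nucleotide pool through salvage. Each condition was 1 yeastDrop-Seq library, so the condition and the library cannot be told apart and no difference has a replicate check.

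Budding yeast senses phosphate through the cyclin-dependent kinase Pho85 with its cyclin Pho80. When phosphate is plentiful the kinase keeps the transcription factor Pho4 out of the nucleus, and when phosphate is scarce the inhibitor Pho81 blocks the kinase, so that Pho4 and Pho2 turn on genes for phosphate uptake and scavenging. Secreted acid phosphatases (PHO5, PHO11, PHO12) release phosphate from organic compounds outside the cell, the transporter Pho84 takes it up, Spl2 turns down low-affinity uptake, and the VTC complex stores phosphate as polyphosphate in the vacuole. PHO3 encodes a further acid phosphatase, which is known to respond to thiamine rather than to phosphate.

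Across the series there were 844 cells with 910561 UMIs, in 233, 258, 85 and 268 cells for DMSO, Guanine, MPA and MPA + Guanine. The libraries held between 102788 UMIs (MPA) and 311199 UMIs (DMSO), with a median of 749.5 to 1250 UMIs per cell, and they shared 0 cell barcodes. No library listed a gene whose highest count in any cell was below 2 UMIs. A gene listed at 0 may therefore have had cells with 1 UMI each before the table was made, and no fold is given against it. All 6 MATa marker genes were in the table, led by MFA1 with 318, 340, 72 and 271 UMIs in DMSO, Guanine, MPA and MPA + Guanine. Not all were well counted: MFA2 had 8 UMIs in DMSO and was listed at 0 elsewhere, and BAR1 was listed at 0 for Guanine. Of the 4 MATalpha markers only SAG1 was in the table, with 7 UMIs in DMSO and 0 elsewhere. LEU2, MET17 (the gene of the met15 allele) and URA3 were not among its genes, whereas HIS3, of which his3Δ1 removes only a part, held 77, 205, 28 and 106 UMIs.

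The regulatory sequences are shown first, because 7 of the 8 genes share one feature. Genes for phosphate uptake and scavenging are known as Pho4 targets, so a shared Pho4 site is not independent of the choice of names. The letters CACGTG, the core of a Pho4 site and its own reverse complement, were searched in the 500 bases before each start codon of the R64 genome. They were found before 7 of 8 genes, the exception being PHO3, against 374 of 6000 annotated genes (6.23%). In the windows below, 30 bases each and read 5′ to 3′ on the gene's strand, the capitals mark these letters.
PHO5 (chrII:431187-431216, minus strand): ccttggcactcaCACGTGggactagcacag
PHO11 (chrI:225165-225194, plus strand): tcttggcgttcaCACGTGggtttaaaaagg
PHO12 (chrVIII:551804-551833, plus strand): tcttggcgttcaCACGTGggtttaaaaagg
PHO84 (chrXIII:26197-26226, minus strand): tgttatttccagCACGTGgggcggaaatta
SPL2 (chrVIII:375230-375259, minus strand): aaatgatgtacgCACGTGggcgaaagttca
VTC1 (chrV:302637-302666, plus strand): aatagatattagCACGTGtctcggagagaa
VTC3 (chrXVI:517312-517341, minus strand): tgcagtcgcaagCACGTGcatgcgattttg
The windows of PHO11 and PHO12 hold the same 30 letters. Their 500 bases before the start codon are 99.2% identical, so these copies are not separate finds. SPL2 had 4 such sites, at 361, 147, 90 and 31 bases before its start codon, and it was the only 1 of 6000 genes (0.0167%) with 4 or more. PHO84 had 2 sites (436 and 414 bases before the start) and VTC3 had 2 (345 and 311), where 41 of the 6000 genes (0.683%) had at least 2. A single site lay 253 bases before PHO5, 283 before PHO11, 283 before PHO12 and 157 before VTC1.

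A weaker form, CACGTT on either strand, was found before 5 of the 8 genes against 961 of 6000 (16.0%). Both forms are drawn by position in the map of sites. For PHO5 and PHO12 it lies in the following windows, with the capitals marking it:
PHO5 (chrII:431296-431325, minus strand): atattaaattagCACGTTttcgcatagaac
PHO12 (chrVIII:551669-551698, plus strand): ttattaaattacCACGTTttcgcataacat
This form began 362 bases before the start of PHO5, 416 before PHO11, 418 before PHO12, 262 before PHO84 and 278 before VTC3, and none was found before PHO3, SPL2 or VTC1. A match describes letters in these windows only, and binding was not measured here.

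**Figure D1:**
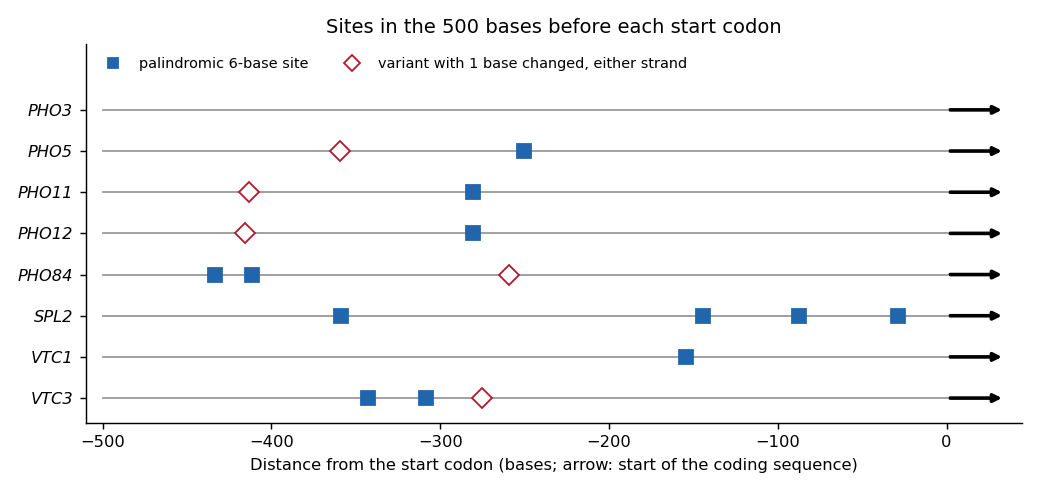
Sites in the 500 bases before the start codon of each gene, with the distance from the start codon in bases on the x axis. Squares are the letters CACGTG and open diamonds the form CACGTT on either strand; PHO3 has no square and SPL2 has 4.

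The 4 acid phosphatase genes were all listed at 0 in the MPA library. PHO5, PHO11 and PHO12 had UMIs in the other 3 libraries, and PHO3 had them in DMSO and MPA + Guanine only. Together they held 255 UMIs in DMSO (819 CPM, 95% interval 722 to 926), 165 in Guanine (761 CPM, 649 to 887), none in MPA and 268 in MPA + Guanine (958 CPM, 847 to 1079.6). All intervals are at the 95% level, and they cover counting error only. The 3 intervals of the libraries with UMIs overlapped.

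PHO12, a phosphate-repressible acid phosphatase, had 128 UMIs in DMSO (411 CPM, 343 to 489), 97 in Guanine (447 CPM, 363 to 546), 0 in MPA and 110 in MPA + Guanine (393 CPM, 323 to 474). DMSO, Guanine and MPA + Guanine did not differ beyond counting error, and MPA stood apart from them. At the CPM of DMSO, the MPA library would have held 42.3 UMIs of PHO12. In DMSO 31 of 233 cells (13.3%) had 2 or more PHO12 UMIs, and the same share of the 85 MPA cells is 11.3 cells. Of the 394 genes with at least as many DMSO UMIs as PHO12, 1 (0.254%) was listed at 0 for MPA, and that gene was PHO12. The cutoff was the gene's own count, so PHO12 belongs to this set by construction. The same holds for PHO11, PHO5 and PHO3 in the sets below, and these shares are descriptions only. The genes listed at 0 for MPA with the next highest DMSO counts were YER010C with 105 UMIs, YPR044C with 101 and DDP1 with 96.

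PHO11, its near-identical copy, had 59 UMIs in DMSO (189.6 CPM, 144 to 245), 56 in Guanine (258 CPM, 195 to 335), 0 in MPA and 72 in MPA + Guanine (257 CPM, 201 to 324). Its 3 measured levels lay within each other's counting error, the order being DMSO, then MPA + Guanine and Guanine side by side. At the CPM of DMSO 19.5 UMIs would have been counted in MPA. Of the 880 genes with at least its DMSO count, 23 (2.61%) were listed at 0 for MPA. The sum of PHO11 and PHO12 was 600.9 CPM in DMSO, 706 CPM in Guanine, 0 in MPA and 650.5 CPM in MPA + Guanine. It pools reads given to either copy, but it can still depend on the counting. Each gene is listed or set to 0 by itself, and reads that match both copies may have been dropped.

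PHO5 encodes the major secreted acid phosphatase and differed most between the 3 libraries that held it. There were 49 UMIs in DMSO (157 CPM, 116 to 208), 12 in Guanine (55.4 CPM, 28.6 to 96.7), 0 in MPA and 78 in MPA + Guanine (279 CPM, 220.4 to 348). The 3 intervals did not overlap. On the log2 scale the ratio of Guanine over DMSO was -1.51 (-2.55 to -0.58), that of MPA + Guanine over DMSO was 0.82 (0.29 to 1.37), and that of MPA + Guanine over Guanine was 2.33 (1.45 to 3.35). The MPA library would have held 16.2 PHO5 UMIs at the CPM of DMSO, and 46 of the 1072 genes with at least its DMSO count (4.29%) were listed at 0 there. In Guanine over DMSO the interval of PHO5 lay below those of PHO11, with a ratio of 0.45 (-0.11 to 1.0), and PHO12, with a ratio of 0.12, and both of these included 0.

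PHO3 was the sparsest of the 8 genes. It had 19 UMIs in DMSO (61.1 CPM, 36.8 to 95.3) and 8 in MPA + Guanine (28.6 CPM, 12.3 to 56.3), and it was listed at 0 for Guanine and MPA. Its zeros carry little weight: 6.28 UMIs would have been counted in MPA at the CPM of DMSO, 1 of 233 DMSO cells had 2 UMIs, and 557 of the 2390 genes with at least its DMSO count (23.3%) were listed at 0 for MPA. MPA + Guanine over DMSO gave -1.09 on the log2 scale, with an interval of -2.50 to 0.16.

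**Figure D2:**
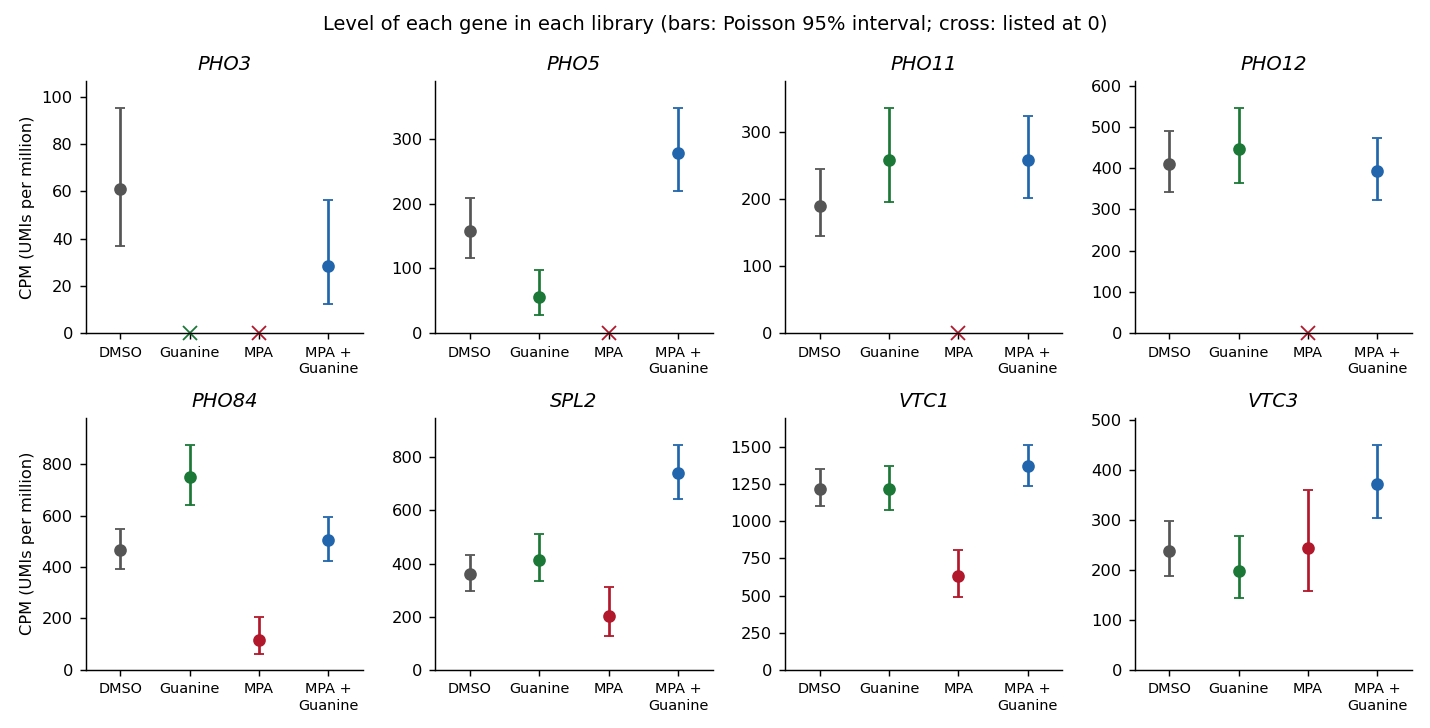
Level of each gene in CPM (y axis, from 0) in the 4 libraries (x axis), with exact Poisson 95% intervals; a cross marks a gene listed at 0. The 4 acid phosphatase genes have crosses for MPA, PHO84, SPL2 and VTC1 have their lowest level there, and VTC3 does not.

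The acid phosphatase genes are copies of each other, which limits how each can be read. All 4 are single coding exons of 1404 bases: PHO3 at chrII:427698-429101 and PHO5 at chrII:429548-430951 (both minus strand, 446 bases apart), PHO11 at chrI:225460-226863 and PHO12 at chrVIII:552099-553502 (both plus strand). PHO11 and PHO12 differ at 4 of 1404 coding bases (99.7% identity), and PHO3 and PHO5 at 189 (86.5%). The last 150 coding bases are shown because the assay primes at the poly(A) tail and reads the end of the mRNA. The capitals mark bases that differ within each pair.
PHO11 (chrI:226714-226863, plus strand): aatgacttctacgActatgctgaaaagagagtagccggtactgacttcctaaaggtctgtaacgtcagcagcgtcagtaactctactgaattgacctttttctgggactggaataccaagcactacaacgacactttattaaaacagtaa
PHO12 (chrVIII:553353-553502, plus strand): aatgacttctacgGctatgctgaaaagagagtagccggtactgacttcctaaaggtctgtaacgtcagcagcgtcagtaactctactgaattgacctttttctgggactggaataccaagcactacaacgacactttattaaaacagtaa
PHO3 (chrII:427698-427847, minus strand): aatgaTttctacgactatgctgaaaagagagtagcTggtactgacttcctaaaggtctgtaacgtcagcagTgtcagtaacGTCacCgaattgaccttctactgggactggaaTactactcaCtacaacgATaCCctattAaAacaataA
PHO5 (chrII:429548-429697, minus strand): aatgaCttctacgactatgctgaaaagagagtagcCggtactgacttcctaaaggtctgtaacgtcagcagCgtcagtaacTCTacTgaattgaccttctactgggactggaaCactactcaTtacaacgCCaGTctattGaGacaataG
Within this stretch 1 base separates PHO11 from PHO12 and 16 bases separate PHO3 from PHO5. After the stop codon PHO11 and PHO12 were 80.1% identical over 300 bases. Of the 50-base stretches from the last 300 coding bases to 150 bases past the stop, 49.1% for PHO11, 45.6% for PHO12, 22.9% for PHO5 and 10.7% for PHO3 had a second exact match in the genome. For PHO84, SPL2, VTC1 and VTC3 the share was 0. How the authors counted reads with several matches is not given in the sources used here, so the separate values of PHO11 and PHO12 are uncertain.

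PHO12 lies next to IMD2, one of the genes for IMP dehydrogenase, the target of MPA. IMD2 starts 893 bases past the end of PHO12 on the same strand. The listed levels of the neighbours were unlike each other: IMD2 was listed at 0 for DMSO and Guanine, where PHO12 had 128 and 97 UMIs, and held 3 UMIs in MPA (29.2 CPM) and 91 in MPA + Guanine (325 CPM). The MPA level of IMD2 rests on these 3 UMIs. Stretches of IMD2 with a second match in the genome were not searched, so its counts may be as uncertain as those of PHO11 and PHO12. On the other side of PHO5, PBY1 was not among the genes of the table.

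PHO84 encodes the high-affinity proton-coupled phosphate transporter. It had 145 UMIs in DMSO (466 CPM, 393 to 548), 163 in Guanine (752 CPM, 641 to 877), 12 in MPA (117 CPM, 60.3 to 204) and 141 in MPA + Guanine (504 CPM, 424 to 594). From lowest to highest the order was MPA, DMSO, MPA + Guanine and Guanine, and only DMSO and MPA + Guanine did not differ beyond counting error. The log2 ratio over DMSO was -2.0 in MPA (-2.98 to -1.15) and 0.69 in Guanine (0.36 to 1.02). For MPA + Guanine it was 0.11 (-0.23 to 0.46) over DMSO, -0.58 (-0.91 to -0.24) over Guanine and 2.11 (1.26 to 3.10) over MPA. The gene spans chrXIII:24037-25800 on the minus strand, and an annotated antisense RNA, YNCM0001W, covers it on the other strand. Whether the counting used strand is not given in the sources used here, and without strand the reads of both cannot be told apart.

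PHO89, the sodium-coupled high-affinity transporter, is not among the 8 genes but does the same task. Its libraries stood in the same order as those of PHO84: 87.6 CPM in MPA (9 UMIs), 228 CPM in DMSO (71 UMIs), 343 CPM in MPA + Guanine (96 UMIs) and 577 CPM in Guanine (125 UMIs). Its log2 ratio over DMSO was -1.38 in MPA (-2.57 to -0.38) and 1.34 in Guanine (0.91 to 1.78). Both high-affinity transporters were thus highest in the Guanine library and lowest in the MPA library. The low-affinity transporters PHO87 and PHO90 were too sparse to compare, with 10 UMIs in all for PHO87 and 16 in DMSO and 25 in MPA + Guanine for PHO90.

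SPL2 encodes the small protein that turns down low-affinity uptake. It had 112 UMIs in DMSO (359.9 CPM, 296 to 433), 90 in Guanine (415 CPM, 334 to 510.3), 21 in MPA (204 CPM, 126 to 312) and 207 in MPA + Guanine (739.8 CPM, 642 to 848). MPA was lowest, MPA + Guanine was highest, and DMSO and Guanine did not differ beyond counting error. The log2 ratio was -0.82 for MPA over DMSO (-1.56 to -0.14), 1.04 for MPA + Guanine over DMSO (0.70 to 1.38), 0.83 for MPA + Guanine over Guanine (0.47 to 1.21) and 1.86 for MPA + Guanine over MPA (1.21 to 2.58). Its highest library was MPA + Guanine and that of PHO84 was Guanine.

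VTC1 and VTC3 are subunits of the vacuolar complex that makes polyphosphate. VTC1, the small membrane subunit, was counted in every library: 380 UMIs in DMSO (1221 CPM, 1101 to 1350.3), 264 in Guanine (1218 CPM, 1075 to 1374), 65 in MPA (632 CPM, 488 to 806) and 384 in MPA + Guanine (1372 CPM, 1239 to 1517). MPA was lower than the other libraries, which did not differ beyond counting error. Over DMSO the log2 ratio was -0.95 in MPA (-1.35 to -0.57) and 0.17 in MPA + Guanine (-0.04 to 0.38).

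VTC3, an accessory subunit, had 74 UMIs in DMSO (238 CPM, 187 to 299), 43 in Guanine (198 CPM, 144 to 267), 25 in MPA (243 CPM, 157 to 359) and 104 in MPA + Guanine (372 CPM, 304 to 450.4). Of the 4 genes with a ratio of MPA over DMSO it was the only one whose interval included 0: the log2 ratio was 0.03 (-0.68 to 0.70), and it turned slightly negative (lowest value -0.17) under 3 of the other settings, TMM scaling among them. The ratio of MPA + Guanine was 0.64 over DMSO (0.20 to 1.09) and 0.91 over Guanine (0.38 to 1.45). In that ratio VTC2 and VTC4 lay between the pair: VTC2 (149, 81, 29 and 142 UMIs in DMSO, Guanine, MPA and MPA + Guanine) had a log2 ratio of -0.76 for MPA over DMSO (-1.39 to -0.18), and VTC4, the catalytic subunit (44, 29, 13 and 70 UMIs), had -0.16 (-1.18 to 0.76). The difference between VTC1 and VTC3 in this ratio was not tested.

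**Figure D3:**
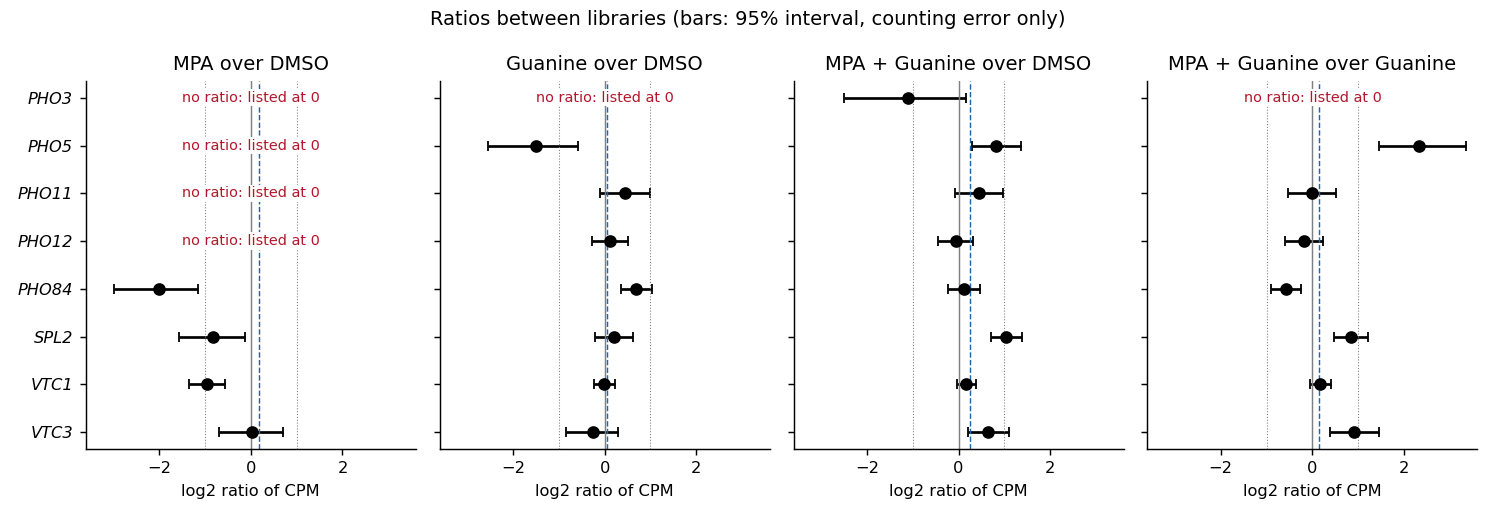
Log2 ratio of CPM between libraries (x axis) for the 8 genes (rows) in 4 comparisons, with 95% intervals of counting error; dotted lines mark 2-fold and the dashed line the median of all genes in that comparison. In MPA over DMSO PHO84, SPL2 and VTC1 lie left of 0 and 4 genes have no ratio, and in MPA + Guanine over DMSO PHO5, SPL2 and VTC3 lie right of 0.

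Counts past 2-fold were set against every gene that reached 50 UMIs in the series as a whole and had UMIs on both sides. In MPA over DMSO 4 of the 8 genes could be counted, and 1 of them (PHO84) was at least 2-fold lower, where 3.8% of 1866 genes were. None was 2-fold higher, against 8.09% of all genes. The median log2 ratio of the 4 genes was -0.88, and that of all genes was 0.18. With TMM scaling, which lowered the median of all genes to -0.03, 3 of the 4 genes (PHO84, SPL2 and VTC1) were 2-fold lower, where 5.95% of all genes were lower and 4.56% higher under that scaling. Counting genes listed at 0 in MPA as lower, a setting chosen after seeing the data, 4 of 7 were lower beside 24.6% of 2434 genes.

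In Guanine over DMSO 7 genes could be counted. PHO5 was 2-fold lower, against 5.01% of 2115 genes, and none was 2-fold higher, against 9.13%. Their median was 0.12 beside 0.05 for all genes. In MPA + Guanine over DMSO 1 of 7 (SPL2) was 2-fold higher, against 9.44% of 2351 genes, and none was 2-fold lower, against 2.55%. SPL2 was so close to the line that with TMM scaling it was not counted, and the count was 0. Under TMM scaling 5.57% of all genes were 2-fold higher and 6.08% lower in that comparison. The median of the 7 genes was 0.44, where that of all genes was 0.26. Above 0 were 6 of the 7, against 66.5% of all genes. With TMM scaling or totals without ribosomal protein genes, PHO84 and VTC1 turned negative.

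The last pair of comparisons had MPA + Guanine on top. Over Guanine, 1 of 7 (PHO5) was 2-fold higher, against 14.9% of 2130 genes, and none was lower, against 8.36%. With TMM scaling these shares of all genes were 10.4% and 12.3%. Over MPA, 3 of 4 (PHO84, SPL2 and VTC1) were 2-fold higher, against 9.78% of 1881 genes, and none was lower, against 8.67%. With totals without ribosomal protein genes VTC1 dropped out of these (0.89), leaving 2 of 4, against 6.22% of all genes higher and 14.2% lower. The median was 0.17 over Guanine and 1.49 over MPA, with 0.15 and 0.04 for all genes. With genes listed at 0 in MPA counted as higher, again a setting chosen after seeing the data, 6 of 7 were higher over MPA beside 29.4% of 2439 genes. The comparisons share libraries, and the genes were chosen for such differences, so nothing is read from these counts about the 8 genes as a group.

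**Figure D4:**
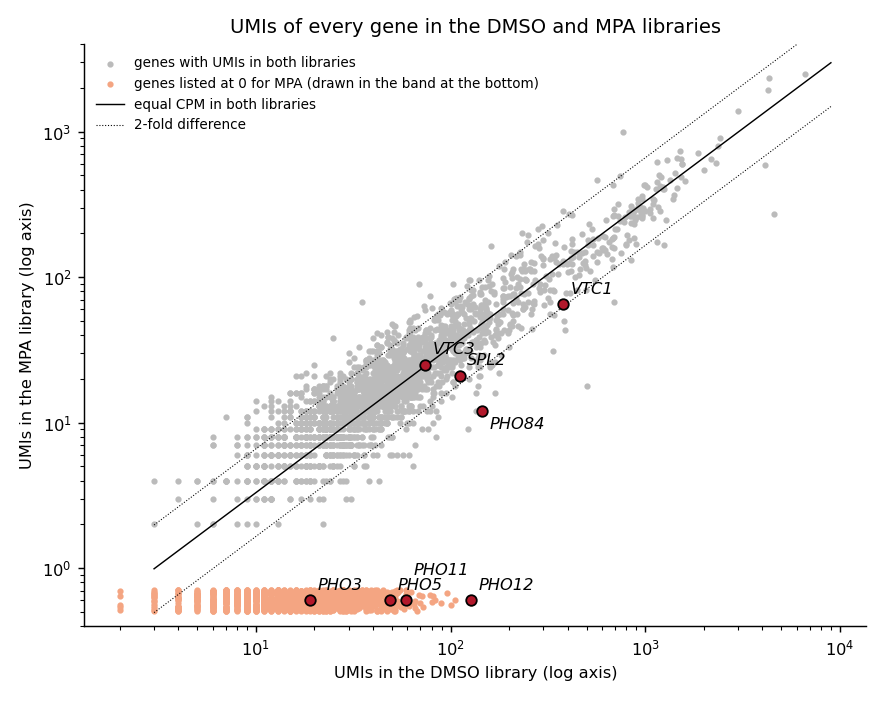
UMIs of every gene in the DMSO library (x axis) and the MPA library (y axis), both on log axes; the band at the bottom holds genes listed at 0 for MPA, the solid line marks equal CPM and the dotted lines 2-fold. PHO12 is the gene of the band farthest to the right, at 128 DMSO UMIs, and PHO84 lies below the lower dotted line.

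Other genes known to answer to phosphate starvation were taken from a list of names. Of a list of 12 such genes, 10 were in the table and 6 had at least 50 UMIs. In MPA over DMSO 2 of 6 (PHO89 and GPP2) were 2-fold lower, none was 2-fold higher, 5 of 6 were below 0, and the median was -0.51. Of all genes 3.8% were 2-fold lower, 8.09% were 2-fold higher and 38.8% were below 0, with a median of 0.18. GPP2, a glycerol-phosphate phosphatase, had 50, 24, 8 and 97 UMIs in DMSO, Guanine, MPA and MPA + Guanine. Its log2 ratio was -1.05 for MPA over DMSO (-2.33 to 0.04) and 1.11 for MPA + Guanine over DMSO (0.60 to 1.63). In MPA + Guanine over DMSO all 6 lay above 0, with 1 past 2-fold (GPP2) and a median of 0.54. Of all genes 66.5% lay above 0 there and 9.44% were past 2-fold, with a median of 0.26. In Guanine over DMSO PHO89 was 2-fold higher and the other 4 of the 5 counted genes lay below 0, with a median of -0.36, where 9.13% of all genes were 2-fold higher and 46.1% lay below 0. Over Guanine, MPA + Guanine had 2 of 5 genes 2-fold higher, PHO86 and GPP2, against 14.9% of all genes. PHO86 lay almost on the line there, with a log2 ratio of 1.002 (0.53 to 1.49). Over MPA it had 2 of 6, PHO89 and GPP2, against 9.78%. PHO86, which helps Pho84 leave the endoplasmic reticulum, had 108, 53, 30 and 137 UMIs, and its log2 ratio for MPA over DMSO was -0.25 (-0.88 to 0.35).

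The transcription factor gene PHO4 did not share the low level of PHO84 in the MPA library. It had 69 UMIs in DMSO (222 CPM), 54 in Guanine (249 CPM), 29 in MPA (282 CPM) and 94 in MPA + Guanine (336 CPM). Its log2 ratio for MPA over DMSO was 0.35 (-0.33 to 0.99). PHO85, the kinase gene, had 25, 27, 12 and 34 UMIs and a ratio of 0.54 (-0.59 to 1.59). These are mRNA levels, and where the Pho4 protein was, or whether the kinase was active, was not measured.

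Among single cells the 8 genes were sparse. Since depth per cell differed between libraries, each cell was thinned to 400 UMIs and shallower cells were left out (4 in DMSO, 33 in Guanine, 0 in MPA and 13 in MPA + Guanine). A PHO84 UMI was then found in 17.9% of DMSO cells (41 of 229, 13.2% to 23.5%), 26.2% of Guanine cells (59 of 225, 20.6% to 32.5%), 5.88% of MPA cells (5 of 85, 1.94% to 13.2%) and 18.4% of MPA + Guanine cells (47 of 255, 13.9% to 23.7%). The order of the shares was that of the CPM. Before thinning, the shares were 36.9%, 38.8%, 10.6% and 32.1%. All cells were of 1 strain, so no cell type that should lack these genes gives a background share from free RNA.

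SPL2 was found in 13.1% of thinned DMSO cells (9.02% to 18.2%), 12.4% of Guanine cells (8.43% to 17.5%), 7.06% of MPA cells (2.63% to 14.7%) and 24.7% of MPA + Guanine cells (19.5% to 30.5%). The share in MPA + Guanine stood above the others, as its CPM did. With 200 UMIs per cell it was again the highest, at 14.9% (10.88% to 19.8%). The intervals of DMSO (3.98% to 10.91%) and Guanine (4.27% to 11.01%) just reached it there. PHO12 was found in 13.97% of DMSO, 16.0% of Guanine and 14.1% of MPA + Guanine cells, with overlapping intervals. At 400 UMIs per cell PHO5 was found in 4.37% (2.11% to 7.88%) of DMSO, 2.67% (0.985% to 5.71%) of Guanine and 7.84% (4.86% to 11.9%) of MPA + Guanine cells. These intervals overlapped, and the order of the shares was that of the CPM. Overlap does not show that the shares were equal, and their difference was not tested. With 200 UMIs per cell the PHO5 shares were 3.86% (1.78% to 7.21%), 0.395% (0.01% to 2.18%, from 1 cell) and 5.97% (3.45% to 9.51%). There the intervals of Guanine and MPA + Guanine did not overlap, and that of DMSO overlapped both. VTC1 was found in 41.0%, 32.4%, 23.5% and 36.1% of DMSO, Guanine, MPA and MPA + Guanine cells. With 200 UMIs per cell its shares were 18.5%, 20.9%, 17.6% and 19.4%, with overlapping intervals. The VTC1 share in MPA was again the lowest at that depth, but close to that of DMSO. VTC3 was in 7.11% to 11.8% of the cells of each library, again with overlapping intervals.

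At 400 UMIs, 135 of 229 DMSO cells, 144 of 225 Guanine cells, 28 of 85 MPA cells and 168 of 255 MPA + Guanine cells had at least 1 of the 8 genes, and 32, 20, 4 and 39 cells had 3 or more. In sum, joint detection was above the product of the single shares in every library. Pairs of other genes were not computed, so it is not known whether this excess is particular to the 8 genes. Summed over pairs of genes with UMIs, it was 179 cells where the product gives 105 in DMSO, 134 where it gives 108 in Guanine, 19 where it gives 6.59 in MPA, and 206 where it gives 148 in MPA + Guanine. Single pairs varied between libraries: PHO12 and SPL2 were found together in 11 DMSO cells where the product gives 4.19, in 2 Guanine cells where it gives 4.48, and in 10 MPA + Guanine cells where it gives 8.89. The cells of a pair overlap those of other pairs, the counts are small, and nothing further is read from them. The variance of thinned counts over their mean is near 1 for counting error alone. It ranged from 0.952 (PHO84 in MPA, 5 UMIs) to 1.68 (SPL2 in MPA, 8 UMIs), and values from so few UMIs are uncertain. For PHO5 it was 1.57 in DMSO (13 UMIs), 1.26 in Guanine (7 UMIs) and 1.65 in MPA + Guanine (29 UMIs). For PHO12 it was 1.61, 0.985 and 1.29.

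The authors deposited 8 subclusters, which were found from the same counts: 2 in DMSO (177 and 56 cells), 2 in Guanine (135 and 123), 1 in MPA (85) and 3 in MPA + Guanine (166, 77 and 25). Within DMSO the intervals of the 2 subclusters overlapped for all 8 genes. In the first Guanine subcluster PHO11 was at 363 CPM (253 to 505) and PHO12 at 591 CPM (448 to 766), and in the second they were at 174 CPM (108 to 267) and 332 CPM (237 to 452). The levels in the first were the higher for both copies, and the intervals overlapped only slightly. PHO84 was at 768 and 739 CPM there, with intervals that overlapped widely.

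VTC3 differed most within the MPA + Guanine library. It was at 464 CPM in the first subcluster (373 to 571), 187 CPM in the second (99.4 to 319) and 61.1 CPM, from 1 UMI, in the third. PHO5 went the other way, with 232 CPM in the first (169 to 311) and 445 CPM in the second (302 to 632), whose intervals overlapped by little. SPL2 was at 759, 675 and 794 CPM in the 3 subclusters, each above its 204 to 485 CPM in all other subclusters, although the interval of the second DMSO subcluster (332 to 685) reached those of all 3, and those of both Guanine subclusters (279 to 541 and 323 to 566) reached those of the smaller 2 MPA + Guanine subclusters. The third holds few UMIs, and PHO84 had 2 of them there (122 CPM, 14.8 to 441).

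**Figure D5:**
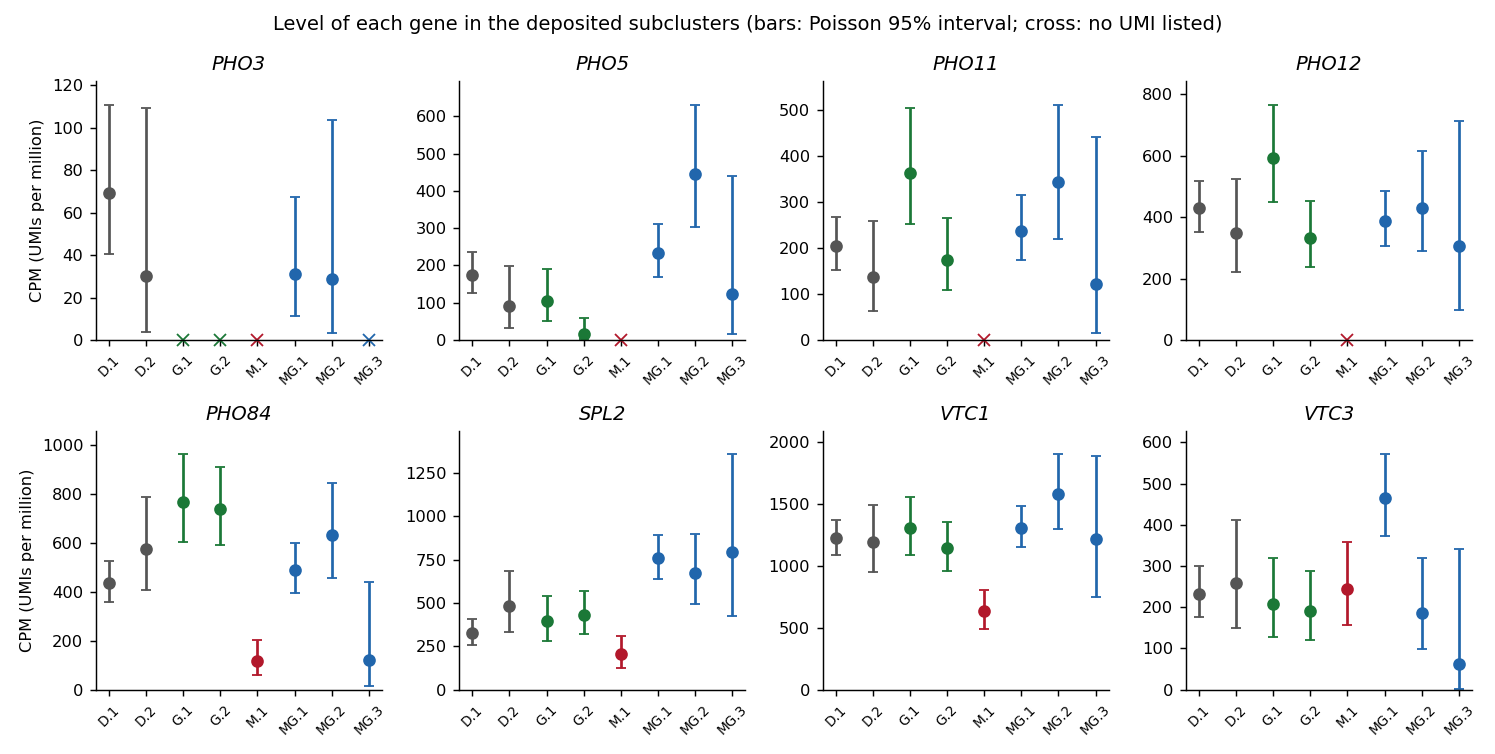
Level of each gene in CPM (y axis, from 0) in the 8 deposited subclusters (x axis: D, DMSO; G, Guanine; M, MPA; MG, MPA + Guanine), with exact Poisson 95% intervals; a cross marks no UMI listed. SPL2 is higher in all 3 MG subclusters than elsewhere, and VTC3 is highest in MG.1.

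Over these 8 subclusters, log2(CPM + 10) of PHO11 and PHO12 had a Pearson correlation of 0.98. It was 0.97 for PHO11 and VTC1, 0.19 for PHO84 and SPL2, and -0.24 for SPL2 and VTC3. The points share libraries, and for the acid phosphatases the MPA zero enters every value. Among 1581 genes of at least 100 UMIs, the genes most alike were APE3 (0.92), HHF1 and TYE7 for PHO5, PTH2 (0.99), GLO1 and KTR1 for PHO12, and GLO1 and YGR161W-C (both 0.98) for PHO11, followed by PHO12. For PHO84 they were MCO6 (0.99), YBR126W-B and YFR035C, for SPL2 RGI2 (0.99), TIM11 and YER079W, for VTC1 MYO4 (0.98), YJL068C and PHO11, and for VTC3 ZWF1 (0.97), VMA22 and CCT5. PHO3 was too sparse for this comparison. Of these 21 likenesses 14 were with genes that were themselves listed at 0 for MPA, among them all 3 for each of PHO11, PHO12, PHO84 and VTC1, so that the MPA library enters most of these correlations.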

How the data were processed

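The authors trimmed the reads with Trimmomatic, aligned them to the R64 genome with STAR, counted UMIs for every gene in every cell with UMI-tools, and filtered cells with scater. The deposited counts were not normalized and came together with the subcluster label of each cell, which was used as given. Of the 4777 gene names, 4606 matched the RefSeq annotation of R64. Depth was 311199 UMIs in DMSO, 216768 in Guanine, 102788 in MPA and 279806 in MPA + Guanine.

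UMIs were summed per library or subcluster and scaled to CPM, with exact Poisson intervals. A log2 ratio had no pseudocount and an exact conditional binomial (Clopper-Pearson) interval, and shares of cells had exact binomial intervals, all at the 95% level. They express counting error and nothing else. No test was made, since each condition had 1 library. Cells were thinned to 400 UMIs without replacement (seed 1). Doublets were not called here. Leaving out the 5% of cells with the most UMIs was an alternative.

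The 8 genes and the gene lists were chosen with earlier results of these data known. The text names the 8 genes, genes of the lists (other phosphate-starvation genes, phosphate signalling, other phosphate transport, polyphosphate turnover, other phosphatases, thiamine genes, mating-type markers and genes deleted in BY4741), the nearest annotated genes, and for each of the 8 genes with at least 100 UMIs the 3 genes most alike over the subclusters. YER010C and YPR044C were named after their values were seen.

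Sequences were read from the R64 genome with Biopython 1.88. The step for ratios was tested on simulated data with known changes. The alternatives were TMM scaling (edgeR 4.0.16, R 4.3.3), the mean of each cell's CPM, totals that leave out ribosomal protein genes, other sets of cells, another fold (1.5), other minimum counts, another comparator and another thinning depth (200). Other steps used python 3.11.15, numpy 2.4.6, scipy 1.17.1, pandas 2.3.3 and matplotlib 3.10.9.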

Additional observations from a re-analysis of the deposited data

Results flagged for a closer look

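For SPL2 and VTC1 the effect of MPA had opposite signs without and with guanine, each value coming from 1 library on either side. The log2 ratio of SPL2 was -0.82 for MPA over DMSO and 0.83 for MPA + Guanine over Guanine. For VTC1 it was -0.95 for MPA over DMSO and 0.17 for MPA + Guanine over Guanine, the latter with an interval of -0.06 to 0.40. That value was near the median of all genes (0.15). It was -0.02 with TMM scaling and -0.17 when ribosomal protein genes were left out of the totals, so the sign for VTC1 with guanine is not settled. The difference between the ratios was not tested, since there is 1 library per condition. Genes listed at 0 for MPA have no ratio over DMSO and could not be flagged. PHO5 is such a gene, with 49 UMIs in DMSO and 0 in MPA. Its log2 ratio for MPA + Guanine over Guanine was 2.33 (1.45 to 3.35).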

How the results depend on the processing

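For the 8 genes, the ones run under other settings, each ratio kept its sign wherever the 95% interval left out 0. Of 210 values of 30 ratios under other settings, 207 lay within the main interval and 3 did not, all with totals without ribosomal protein genes: VTC1 in MPA + Guanine over DMSO (-0.11) and over Guanine (-0.17), and PHO84 in MPA + Guanine over Guanine (-0.92). The number of genes at least 2-fold lower in MPA than in DMSO, 1 as reported, was 3 with TMM scaling (5.95% of all genes), 2 with totals without ribosomal protein genes (4.5%), 3 with a fold of 1.5 (10.3%), 3 against the other libraries pooled (6.4%) and 4 when genes listed at 0 were counted, a setting chosen after seeing the data. Genes higher in Guanine than in DMSO were 0, and 1 with a fold of 1.5 (19.8%). Genes higher in MPA + Guanine than in DMSO were 1, and 0 with TMM scaling (5.57%), 0 with totals without ribosomal protein genes (4.55%), 3 with a fold of 1.5 (27.5%) and 2 against the other libraries pooled (16.0%). Genes lower there were 0, and 1 (PHO3) with a minimum of 20 UMIs (2.45%) and 1 with no minimum (2.56%). Over Guanine, 1 gene was higher and 3 with a fold of 1.5 (28.4%). Over MPA, 3 were higher, 2 with totals without ribosomal protein genes (6.22%), 4 with a fold of 1.5 (22.0%) and 6 when genes listed at 0 were counted. The scalings and thresholds act on values close to 2-fold by construction, and other causes were not tested. Of 54 shares of cells at another depth or without thinning, 39 moved out of the main interval. Such a share falls with fewer UMIs per cell and rises with more, so this movement largely follows from the depth itself. No paired analysis was possible because each condition has 1 library. For the same reason no replicate could be left out.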

Other observations

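Genes of polyphosphate breakdown and of inositol pyrophosphate signalling, which are tied to phosphate sensing, were outside the comparisons above. PPN1, an endopolyphosphatase of the vacuole, was higher in both libraries with MPA: it had 100 UMIs in DMSO (321 CPM), 45 in Guanine (208 CPM), 65 in MPA (632 CPM) and 178 in MPA + Guanine (636 CPM). Its log2 ratio was 0.98 for MPA over DMSO (0.50 to 1.44) and 1.62 for MPA + Guanine over Guanine (1.14 to 2.12). The other 3 genes of that list, PPX1, PPN2 and VTC5, had at most 37 UMIs in any library.

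DDP1, a phosphatase of inositol pyrophosphates and of polyphosphate, had 96 UMIs in DMSO, 62 in Guanine, 0 in MPA and 106 in MPA + Guanine, so that it was, like PHO12, listed at 0 for MPA only. Of the 8 signalling genes 7 were in the table and 5 had at least 50 UMIs. Of those 5, DDP1, KCS1 and VIP1 were listed at 0 for MPA, as were 22.3% of all 2455 genes with that many UMIs. In MPA + Guanine over Guanine 1 of 5 (KCS1) was past 2-fold (1.26, 0.24 to 2.39), against 14.9% of all genes. In the list of other phosphate transport genes 5 of 5 were in the table, and only PHO88 passed 50 UMIs, with 242, 175, 62 and 190 UMIs and a log2 ratio of -0.37 for MPA over DMSO (-0.79 to 0.04). Of 15 thiamine genes, listed because of PHO3, 6 were in the table and none reached 50 UMIs, so they give no comparison with it. Neither of the other phosphatase genes on the list was in the table.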
